A study of Mus musculus with 12 samples.

Results

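Naive CD4+CD62L+ T cells from spleens and lymph nodes of C57BL6/J mice were cultured for 5 days into Th17 or Th9 cells, and the transcription factor BATF was immunoprecipitated from their chromatin and sequenced (ChIP-seq). The subject here is the set of BATF regions found in Th17 cells only, which numbered 2711 of the 5873 regions called against input and IgG in any of the 4 BATF libraries. Both cultures received antibodies to CD3 and CD28, TGF-β1 and anti-IFNγ. The Th17 cultures also received IL-6, IL-23, IL-1β, anti-IL-4 and anti-IL-2, and the Th9 cultures IL-4 and IL-2. Cells were not restimulated before collection, and such cultures hold a mixture of cells. The 2 Th17 BATF libraries are numbered 3 and 4 and the 2 Th9 BATF libraries 1 and 2, each with an input and an IgG library of its own number, and the labels do not say whether the 2 libraries of a cell type came from separate cultures, so tests across libraries measure only the spread between these libraries. The peak lists hold no expression values, so the labelled cell types could not be checked against marker genes.

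BATF is a basic leucine zipper protein of the AP-1 family that has no activation domain of its own. It pairs with a JUN protein on AP-1 sites, and in lymphocytes the pair often binds next to IRF4 or IRF8 on composite DNA elements called AICEs (AP-1-IRF composite elements). BATF is needed for Th17 cells to form, and acts there early with IRF4 and STAT3 at the genes of the Th17 programme.

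A peak was counted as a member when it stood in the list called against input and IgG together, overlapped by at least 1 bp a peak of the same library in the input list and in the IgG list, and overlapped no peak in any of the 6 Th9 lists. The members were thus chosen by the presence of a peak in Th17 and its absence in Th9, and the fold enrichment and −log10 q of their peaks are given below as a description, with no test. In Th17 library 3, 2847 of 4111 peaks stood in all 3 lists, 189 of these overlapped a Th9 peak and 2658 were members. In Th17 library 4, 135 of 199 peaks stood in all 3 lists, 50 overlapped a Th9 peak and 85 were members. After merging, 2626 regions were called in library 3 only, 53 in library 4 only and 32 in both, so that 96.9% of the set rests on 1 library. Of the 53 regions of library 4 only, 43 had no peak in any list of library 3. Of the 2626 regions of library 3 only, 11 had a peak in any list of library 4. A region without a Th9 peak was below the threshold there and is not shown to be unbound.

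The fold enrichment, which is the fragment pile-up at the summit over the local background as the authors computed it, ran from 2.25 to 23.7 with a median of 5.65 in library 3 and from 4.86 to 16.2 with a median of 7.02 in library 4. The lists give no read counts and the depth of the libraries is unknown from them. In library 3, 82.7% of the members' fold enrichments were whole multiples of 0.565 within a tolerance of 0.005 multiples, with a median of 10 multiples and a minimum of 8. In library 4, 90.6% were whole multiples of 0.540, with a median of 13. Where the local background equals the genome-wide one, the peak caller's definition makes adjacent values on such a scale differ by 1 fragment, so that a typical member rests on few fragments. The median −log10 q, where q is the false discovery rate of the peak caller, was 4.12 in library 3 and 5.76 in library 4.

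Members near the limit of the rule were few. The nearest Th9 peak lay within 1000 bp of 8 members and within 10000 bp of 63 members. The closest member, near *Mir509* on the X chromosome (68154376 to 68154547, fold enrichment 5.65), was 96 bp from a Th9 peak, and the next, near *Alcam* on chromosome 16 (52443578 to 52443787, fold enrichment 7.90), 123 bp. Just outside the rule, a Th17 region near *Gm36712* on chromosome 16 overlapped a Th9 peak by 54 bp with a fold enrichment of 5.12, and one near *P2ry1* on chromosome 3 by 65 bp with a fold enrichment of 5.64.

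The AP-1 site that BATF:JUN recognises, TGAGTCA on one strand and TGACTCA on the other, was the sequence that most set the members apart from the DNA around them. The sequences of 5 of the regions called in both libraries and of 6 regions near genes of the T cell programmes show it. They are read from the plus strand of the RefSeq genome GRCm38 (mm10), 50 bases to either side of the site nearest the summit, and capitals mark AP-1 sites.
*Gm17746*, chr12:25143690-25143790: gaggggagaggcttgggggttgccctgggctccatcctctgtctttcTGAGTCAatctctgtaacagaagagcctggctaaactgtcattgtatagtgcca
*Gm4832*, chr17:88195422-88195522: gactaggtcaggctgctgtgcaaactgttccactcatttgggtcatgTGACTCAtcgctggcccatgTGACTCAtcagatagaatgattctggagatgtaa
*Mfap5*, chr6:122527692-122527792: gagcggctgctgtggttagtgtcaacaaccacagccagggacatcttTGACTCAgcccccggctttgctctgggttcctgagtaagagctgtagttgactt
*Ddx43*, chr9:78387108-78387208: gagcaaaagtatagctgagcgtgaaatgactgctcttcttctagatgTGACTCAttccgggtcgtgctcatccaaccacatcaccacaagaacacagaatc
*Trpm1*, chr7:64141532-64141632: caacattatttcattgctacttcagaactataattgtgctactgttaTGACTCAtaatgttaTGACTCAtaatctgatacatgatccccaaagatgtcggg
*Ahr*, chr12:35553270-35553370: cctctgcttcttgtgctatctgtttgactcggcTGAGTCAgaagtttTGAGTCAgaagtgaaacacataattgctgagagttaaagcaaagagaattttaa
*Il1r1*, chr1:40236258-40236358: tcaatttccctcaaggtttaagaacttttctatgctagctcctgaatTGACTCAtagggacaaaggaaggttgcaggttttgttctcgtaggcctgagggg
*Ccr6*, chr17:8226950-8227050: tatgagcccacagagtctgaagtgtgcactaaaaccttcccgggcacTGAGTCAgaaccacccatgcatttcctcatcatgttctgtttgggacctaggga
*Nfkbiz*, chr16:55754626-55754726: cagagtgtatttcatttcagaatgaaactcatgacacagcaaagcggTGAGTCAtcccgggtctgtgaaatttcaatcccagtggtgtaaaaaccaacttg
*Icos*, chr1:61050517-61050617: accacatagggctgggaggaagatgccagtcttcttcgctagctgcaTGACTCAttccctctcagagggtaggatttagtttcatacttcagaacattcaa
*Bach2*, chr4:32250738-32250838: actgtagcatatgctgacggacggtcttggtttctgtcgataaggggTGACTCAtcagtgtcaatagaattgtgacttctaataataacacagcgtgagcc
The sequences shown near *Gm4832*, *Trpm1* and *Ahr* each hold a pair of AP-1 sites. The *Ccr6* region also held 2 within 100 bp of its summit, of which 1 lies outside the bases shown. The *Mfap5* and *Il1r1* regions are in introns of these genes, and the other 9 are between genes.

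Within 100 bp of the summit, 529 of 2711 members held an AP-1 site, which is 19.5% (exact 95% binomial interval 18.04% to 21.1%, counting error only). In windows as long, centred 2000 bp up- and downstream, 3.39% held one, so that the share in members was higher by 16.1 percentage points (Fisher's exact test, two-sided, p = 1.86e-121, adjusted p = 3.72e-120 over the 20 motifs searched). Both libraries showed it. Of the 2658 members with a library 3 peak, 19.3% held a site against 3.42% of their flanks (Fisher's exact test, p = 3.62e-116), and of the 85 with a library 4 peak, 35.3% against 2.35% (Fisher's exact test, p = 1.30e-12). A single site was present in 438 members, 2 sites in 86 and 3 sites in 5, and 2182 members held none.

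The sites lay close to the summits. The site nearest to the summit was at a median of 29 bp from it in members and 50 bp from the window's centre in flanks. It was within 25 bp in 45.0% of the members with a site and in 23.4% of such flanks.

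**Figure D1:**
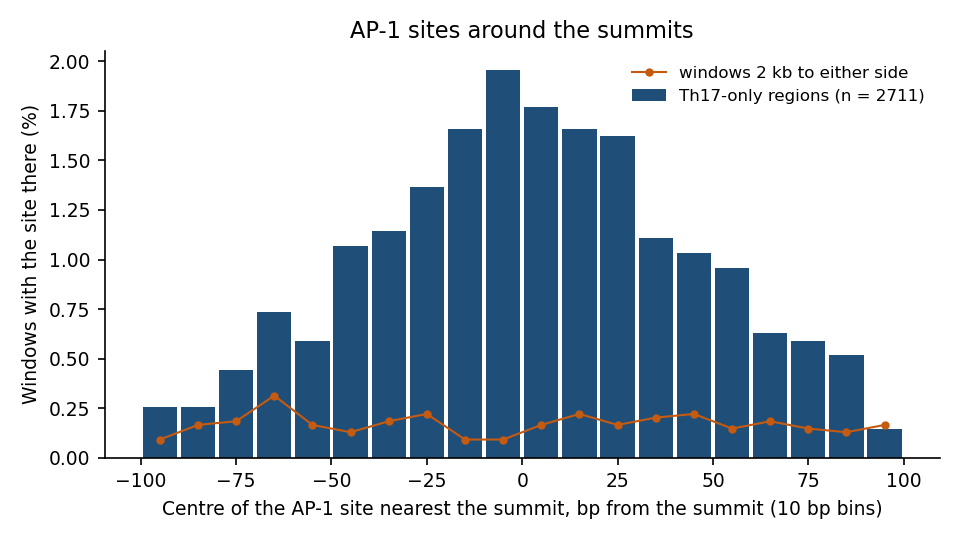
Share of windows (%) whose nearest AP-1 site has its centre at a given distance (bp, 10 bp bins) from the peak summit; bars are the 2711 Th17-only regions and the line the windows 2 kb to either side. The share in members peaks at 1.96% in the bin just left of the summit, and the flanks stay at or below 0.314% in every bin.

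The AP-1 share followed the strength of the call. It was 6.59% (4.42% to 9.38%) of the 425 members with a −log10 q from 2 to 3, 10.6% (8.77% to 12.7%) of 1009 members from 3 to 5, 21.6% (18.7% to 24.6%) of 779 members from 5 to 8, and 45.4% (40.9% to 49.9%) of 498 members at 8 or more. None of these 4 intervals except those of the lower pair overlaps another. The lowest range was still above the 3.39% of flanks.

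Regions called in both Th17 libraries held an AP-1 site more often than those called in library 3 only, 14 of 32 (43.8%) against 499 of 2626 (19.0%; Fisher's exact test, p = 0.00127). Their median −log10 q was 11.7 against 4.12. Among library 3 peaks with a −log10 q of 8 or more, the share was 44.0% of the 25 also called in library 4 and 45.8% of the 463 not called there (Fisher's exact test, p = 1). Library 4 called 0 of 408 library 3 members with a −log10 q from 2 to 3, which allows a share of up to 0.90% by the exact interval, and 5.12% of the 488 at 8 or more.

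Th17 regions that also overlap a Th9 peak carried the site more often than the Th17-only regions. There it was in 106 of the 201 regions, 52.7% (45.6% to 59.8%), so that the Th17-only share minus theirs was −33.2 percentage points (Fisher's exact test, p = 1.38e-23, adjusted p = 9.69e-23 over 7 class comparisons). Their median −log10 q was 12.8. Within a range of −log10 q the difference was 6.59 points from 2 to 3 (0 of 4 regions, Fisher's exact test, adjusted p = 1), −31.1 points from 3 to 5 (5 of 12 regions, Fisher's exact test, adjusted p = 0.0490) and −33.99 points from 5 to 8 (15 of 27 regions, adjusted p = 0.00269 by the same test), and at 8 or more it was −9.05 points (86 of 158 regions, adjusted p = 0.209 by the same test). With the Th17 regions of both libraries only, it was 43.8% of 32 against 50% of 38 (Fisher's exact test, p = 0.638), and without library 3 the difference was −12.4 points (Fisher's exact test, p = 0.207).

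Th9-only regions, found by the same rule with the cell types exchanged, held the site in 131 of 1101 regions, 11.9% (10.04% to 13.96%). The Th17-only share was higher by 7.61 points (Fisher's exact test, p = 7.55e-09, adjusted p = 1.76e-08). The share was 19.3% and 35.3% in libraries 3 and 4 and 11.4% and 19.8% in libraries 1 and 2, so the values of the cell types overlapped (exact permutation test over libraries, two-sided, p = 0.667, where 2 against 2 cannot go below 0.333). Without Th9 library 1, which holds most Th9-only regions, the difference over regions was 0 points (Fisher's exact test, p = 1). The Th9 side then rests on library 2, whose 91 Th9-only regions give a wide interval (12.2% to 29.4%). In none of the 4 ranges of −log10 q did Th17-only and Th9-only regions differ after adjustment. The differences there ran from 1.72 to 7.63 points (Fisher's exact test, adjusted p from 0.209 to 0.621).

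**Figure D2:**
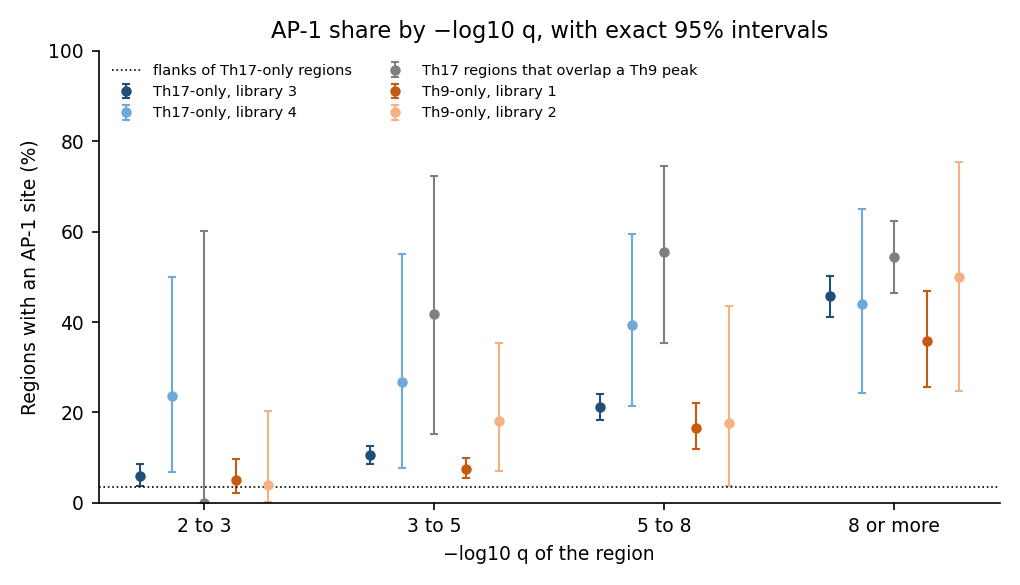
Share of regions with an AP-1 site (%) by the −log10 q of the region, with exact 95% binomial intervals, for Th17-only regions of libraries 3 and 4, Th17 regions that overlap a Th9 peak, and Th9-only regions of libraries 1 and 2; the dotted line is the flank share. The share of Th17-only regions rises from 5.88% to 45.7% across the ranges in library 3, and the intervals of library 4 overlap those of library 3 in all 4 ranges.

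Of the other 19 motifs searched, 8 were more frequent in members than in flanks after adjustment. The AP-1 variant with an A or T in the centre, TGAATCA or TGATTCA, was in 5.83% of members and 2.66% of flanks (Fisher's exact test, adjusted p = 6.30e-11). The MAF-type site TGCTGACT, whose last bases can open an AP-1 site, was in 1.88% and 0.756% (Fisher's exact test, adjusted p = 6.72e-05), and 26 of its 51 windows also held AP-1. The RUNX site TGTGGTTT was in 2.95% and 1.75% (Fisher's exact test, adjusted p = 0.00209), the STAT site TTCNNNGAA in 8.34% and 6.77% (adjusted p = 0.0322 by the same test), the RORE, a nuclear receptor element, in 0.664% and 0.295% (adjusted p = 0.0450) and the ISRE, a site of IRF proteins, in 4.24% and 3.23% (adjusted p = 0.0496). With flanks 5000 bp away 5 of the 8 passed, and the STAT site (Fisher's exact test, adjusted p = 0.455), the RORE (adjusted p = 0.166) and the ISRE (adjusted p = 0.127) did not. With a minimum −log10 q of 5, the RORE was in 0.313% of members and 0.313% of flanks. Sites of GATA factors, NFAT, TCF, NF-kB, T-box factors, KLF/SP, SMAD, ETS and CTCF, the STAT6 type of STAT site and the CRE (TGACGTCA) did not pass the test. In Th9-only regions the STAT, RUNX and MAF-type sites passed against their own flanks too (Fisher's exact test, adjusted p = 0.0236, 0.0285 and 0.0285). None of the 19 motifs differed in share between Th17-only and Th9-only regions after adjustment (Fisher's exact test, lowest adjusted p = 0.127). In windows without an AP-1 site, chosen as a comparison after the values were seen, only the AP-1 variant of 17 motifs passed (5.27% against 2.56%, Fisher's exact test, adjusted p = 2.65e-07), and RUNX stood at 2.66% against 1.79% (adjusted p = 0.0818).

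Composite sites for BATF:JUN with IRF4 or IRF8 were rare. The spaced AICE was in 17 members (0.627%) against 0.0553% of flanks (Fisher's exact test, adjusted p = 1.38e-05), and the adjacent AICE in 18 members (0.664%) against 0.0369% (adjusted p = 1.48e-06 by the same test). Each contains an AP-1 site. Among windows with an AP-1 site, either AICE was in 34 of 529 members (6.43%) and 5 of 184 flanks (2.72%; Fisher's exact test, p = 0.0605, adjusted p = 0.181). The share of AP-1 regions with an AICE was 13.2% in Th17 regions that overlap a Th9 peak (14 of 106, Fisher's exact test against members, p = 0.0249) and 12.2% in Th9-only regions (16 of 131, p = 0.0403 by the same test), both above the Th17-only share. Both p-values are unadjusted. By form, the spaced AICE was in 17 of 529 AP-1 members, 4 of 106 overlapping Th17 regions and 3 of 131 Th9-only regions. The adjacent AICE was in 18, 10 and 13 of these, in the same order. Among AP-1 regions the forms were not tested apart between the classes. Over all regions, with or without AP-1, an AICE was in 1.25% of members, 1.45% of Th9-only regions and 6.97% of Th17 regions that overlap a Th9 peak. The strongest members with an AICE and a pair near T cell genes are shown, with the composite site in capitals. *Elmo1* codes for an adaptor that activates RAC, *Zbtb20* for a zinc finger repressor, *Fyn* for a SRC family kinase of T cell receptor signalling and *Ccr2* for a chemokine receptor.
*Elmo1*, adjacent, chr13:20136913-20137013: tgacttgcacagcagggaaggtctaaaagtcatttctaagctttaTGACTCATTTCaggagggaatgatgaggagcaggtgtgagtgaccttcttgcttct
*Zbtb20*, adjacent, chr16:42900468-42900568: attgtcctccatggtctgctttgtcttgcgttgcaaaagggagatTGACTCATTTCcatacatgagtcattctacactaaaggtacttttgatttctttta
*Elmo1*, adjacent, chr13:20111376-20111476: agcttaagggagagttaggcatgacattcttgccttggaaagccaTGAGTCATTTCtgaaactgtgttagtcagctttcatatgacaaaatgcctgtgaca
*Fyn*, spaced, chr10:39479513-39479613: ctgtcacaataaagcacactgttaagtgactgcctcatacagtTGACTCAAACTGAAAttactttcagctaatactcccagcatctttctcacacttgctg
*Ccr2*, adjacent, chr9:124068522-124068622: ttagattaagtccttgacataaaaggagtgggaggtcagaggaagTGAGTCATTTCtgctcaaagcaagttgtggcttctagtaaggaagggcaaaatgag
These 5 regions were called in library 3 only, with fold enrichments of 13.6 and 11.3 at *Elmo1*, 13.0 at *Zbtb20*, 9.19 at *Fyn* and 7.90 at *Ccr2*. The *Ccr2* region lay 33649 bp upstream of the start site, and the *Elmo1* and *Fyn* regions in introns of these genes. The *Zbtb20* region lay 7119 bp upstream of the *Zbtb20* start site, in an intron of *Gm19522*.

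**Figure D3:**
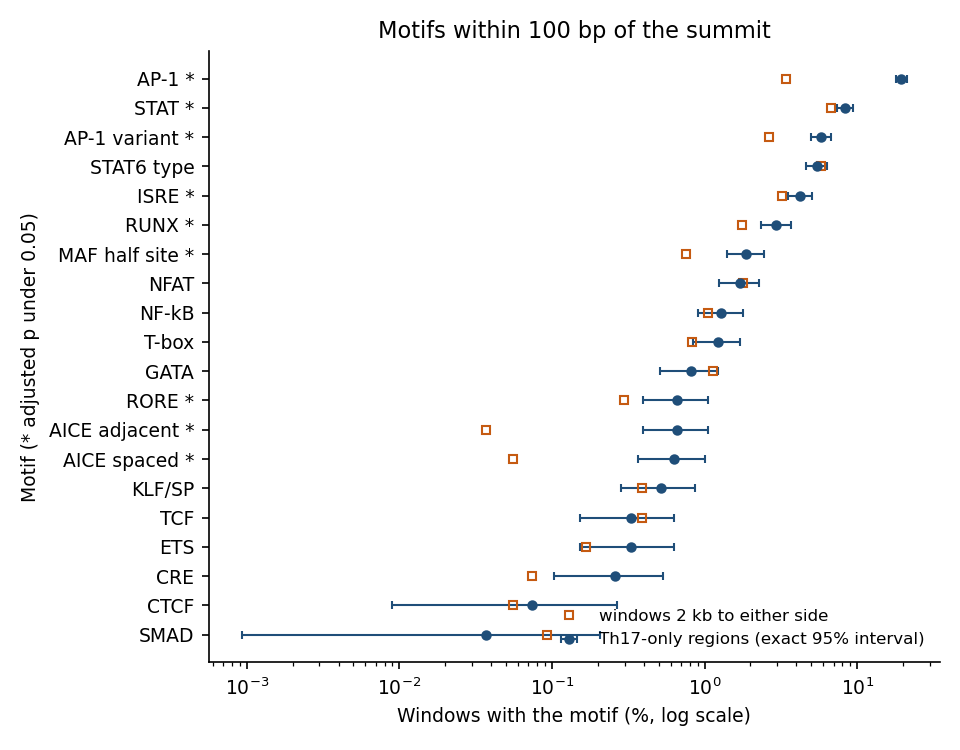
Share of windows (%, log scale) within 100 bp of the summit that hold each of 20 motifs, for the 2711 Th17-only regions (points, exact 95% intervals) and the windows 2 kb to either side (squares); a star marks an adjusted p under 0.05. AP-1 is at 19.5% in members and 3.39% in flanks, and GATA, TCF, NFAT and the STAT6 type lie at or below their flank share.

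A search of all 7-letter words without a prior list also put the AP-1 word first. Of 8190 words, counting a word and its reverse complement as one, 94 (1.15%) were more frequent in members than in flanks and 26 (0.317%) less frequent (Fisher's exact test, adjusted p under 0.05). After TGACTCA came its extensions ATGACTC (10.2% of members, 2.56% of flanks) and GAGTCAC (8.34% and 2.23%). Among the 26 less frequent words, 14 hold at least 5 C or at least 5 G. The base after TGAGTCA was a T in 215 of 529 AP-1 members (40.6%), 62 of 184 AP-1 flanks (33.7%, Fisher's exact test, adjusted p = 0.171) and 63 of 106 AP-1 regions that overlap a Th9 peak (59.4%, adjusted p = 0.00166 against members by the same test).

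The 2182 members without an AP-1 site were searched on their own, a comparison added after the values were seen. There 25 words were more frequent than in flanks without the site, led by ATGACTG (7.79% against 2.75%, Fisher's exact test, adjusted p = 2.87e-15), AATGACT (7.15% against 3.10%, adjusted p = 2.87e-09 by the same test) and TGACTAA (6.46% against 2.80%, adjusted p = 2.00e-08). All 3 hold TGACT, with which the AP-1 word TGACTCA begins. Words that differ from TGAGTCA or TGACTCA in exactly 1 base were in 1119 of 2182 members without AP-1 (51.3%) and in 43.0% of such flanks (Fisher's exact test, adjusted p = 1.40e-10). At a −log10 q of 8 or more they were in 188 of 272 members (69.1%, 63.3% to 74.6%) and 44.0% of flanks (Fisher's exact test, adjusted p = 4.87e-13). A change of the second or the sixth base of the word, the G or C inside its outer T and A, was the most frequent kind, in 43.4% of these 272 members and 13.4% of flanks (Fisher's exact test, adjusted p = 6.22e-24). For a change of the third or the fifth base the shares were 24.6% and 23.1% (Fisher's exact test, adjusted p = 0.627).

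Since the words were picked in these members, the same count was made in regions that had no part in the choice. In Th9-only regions without AP-1 and with a −log10 q of 8 or more, a change of the second or the sixth base was in 25 of 61 regions (41.0%) and 18.4% of flanks (Fisher's exact test, adjusted p = 0.00432). In Th17 regions that overlap a Th9 peak it was in 38 of 72 regions (52.8%) and 18.4% of flanks (Fisher's exact test, adjusted p = 6.17e-08).

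**Figure D4:**
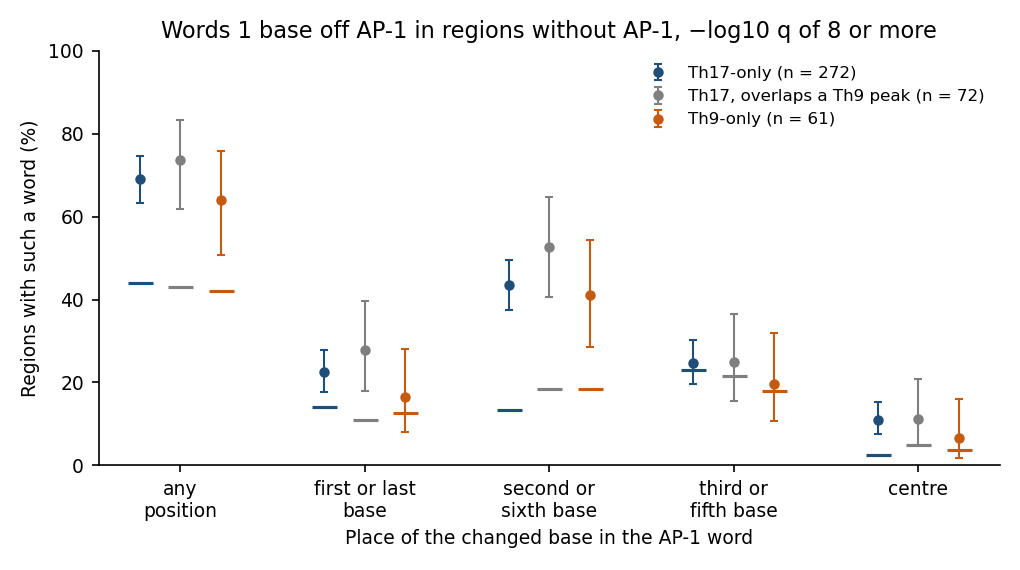
Share of regions without an AP-1 site and with a −log10 q of 8 or more (%) that hold a word 1 base off AP-1, by the place of the changed base, with exact 95% intervals; short bars are the flanks of the same regions. In Th17-only regions, among single places, the largest gap to the flanks is at the second and sixth base, 43.4% against 13.4%, and at the places between these and the centre it is 24.6% against 23.1%.

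Of the 10 strongest members without an AP-1 site whose sequence was examined, 9 held such a word. The following 4 were picked after the values were seen, with a change of the second or the sixth base near *Bnip2* and *Nrn1* and of the centre near *Saysd1* and *Ccr1*, and the word nearest the summit is in capitals.
*Bnip2*, chr9:69987656-69987756: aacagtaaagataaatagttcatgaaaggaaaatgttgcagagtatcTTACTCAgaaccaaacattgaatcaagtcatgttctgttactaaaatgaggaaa
*Saysd1*, chr14:20044602-20044702: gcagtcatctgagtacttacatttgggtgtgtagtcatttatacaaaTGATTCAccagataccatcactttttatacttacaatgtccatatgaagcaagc
*Ccr1*, chr9:123960319-123960419: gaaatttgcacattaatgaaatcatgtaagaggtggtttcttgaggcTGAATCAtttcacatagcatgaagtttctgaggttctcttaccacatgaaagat
*Nrn1*, chr13:36534772-36534872: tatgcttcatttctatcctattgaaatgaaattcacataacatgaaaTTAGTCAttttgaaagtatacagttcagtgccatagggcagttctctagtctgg
They had fold enrichments of 18.1 near *Bnip2*, 16.9 near *Saysd1*, 14.7 near *Ccr1* and 14.7 near *Nrn1*, all in library 3 only. *Ccr1* codes for an inflammatory chemokine receptor, and its region lay 8297 bp downstream of the start site. With these, *Inpp4b* (fold enrichment 19.8, intron, a phosphoinositide phosphatase), *9430018G01Rik* (16.4), *Jdp2* (15.2, a repressive bZIP partner of JUN proteins), *Cyrib* (14.7), *Ext1* (13.9, intron, heparan sulphate synthesis) and *Cxcr4* (14.1) make up the nearest genes of the 10 members with the highest −log10 q that were called in 1 library. The tenth place is a tie of 4 regions with the same −log10 q and fold enrichment, near *Cxcr4*, *Tia1*, *Tnfrsf13b* and *Trem2*, the last 3 named after their values were seen. The regions near *9430018G01Rik*, *Jdp2*, *Cyrib* and *Ext1* held an AP-1 site.

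The 32 regions called in both Th17 libraries had fold enrichments from 5.08 to 23.7 with a median of 9.32 in library 3, and from 5.26 to 16.2 with a median of 8.38 in library 4. The value was higher in library 3 at 19 of them. The highest, on chromosome 12 (25143579 to 25143828) and 14515 bp downstream of the start site of *Gm17746*, reached 23.7 in library 3 and 16.2 in library 4. Next by their mean were regions in an intron of *Mast4* nearest to *1700099I09Rik* (17.5 and 7.57), near *Gm4832* (13.6 and 11.3), 4506 bp upstream of *Trib2* (13.0 and 11.3), in an intron of *Mfap5* (14.1 and 8.11) and 2921 bp upstream of *Sdcbp2* (10.7 and 10.8). *Trib2* codes for a pseudokinase. The regions near *Ddx43* (12.4 and 8.65), *Trpm1* (10.2 and 9.73), *Gm30694* (10.6 and 9.19, in an intron of *Rasal2*) and *Gja10* (10.7 and 8.65) complete the 10 highest, of which 6 held an AP-1 site. Of the 32 regions, 19 lay between genes and 12 in introns, and none had a window mostly covered by repeats. None was nearest to a gene of the 8 lists described below.

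**Figure D5:**
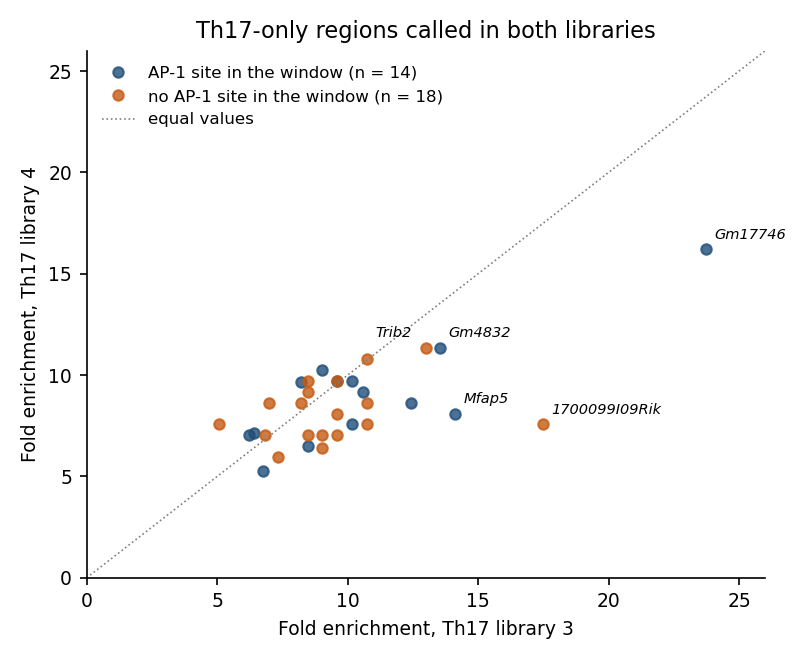
Fold enrichment of the 32 Th17-only regions called in both libraries, library 3 on the horizontal and library 4 on the vertical axis, coloured by the presence of an AP-1 site; the dotted line marks equal values. The region near *Gm17746* is the highest in both libraries, at 23.7 and 16.2.

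Most members lay far from start sites. The summit was between genes in 1467 members (54.1%), in an intron in 1159 (42.8%), in a coding exon in 37, in a UTR in 33 and in a non-coding exon in 15. The median distance to the nearest start site was 38233 bp, and 27.8% of members were more than 100 kb away. The median was 23123 bp in Th17 regions that overlap a Th9 peak and 45493 bp in Th9-only regions.

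A start site was within 1000 bp of 107 members, 3.95% (3.25% to 4.75%). The share was 1.49% (3 of 201) in Th17 regions that overlap a Th9 peak (difference 2.45 points, Fisher's exact test, adjusted p = 0.0980) and 2.54% (28 of 1101) in Th9-only regions (difference 1.40 points, adjusted p = 0.0468 by the same test). The second difference was 1.07 points with a promoter of 2500 bp (Fisher's exact test, p = 0.252) and turned to −0.116 points without library 3 (p = 1 by the same test), where the first turned to −1.65 points (p = 0.627). Without library 4 the first was 2.93 points (Fisher's exact test, p = 0.0455), and without Th9 library 1 the second was 0.532 points (p = 1). Promoter members held an AP-1 site as often as the rest within error, 22.4% against 19.4% (Fisher's exact test, p = 0.455), and had a GC content of 52.6% ± 12.8 (SD, n = 107 regions) against 41.7% ± 7.27 (SD, n = 2604 regions).

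The strongest promoter member was that of *Il2ra*, which codes for the α chain of the IL-2 receptor. It spanned positions 11642501 to 11642757 of chromosome 2, its summit 148 bp upstream of the start site, at a fold enrichment of 12.4 in library 3, and library 4 had no member there. A region 126 bp upstream of *Ctla4*, which codes for an inhibitory receptor, spanned 60908789 to 60908994 of chromosome 1 and reached 9.19 in library 4 only. Neither window held an AP-1 site. The promoter member of *Slc25a45* on chromosome 19 (5878008 to 5878250), named because it was the only promoter region called in both libraries, had fold enrichments of 9.60 and 9.73 and an AP-1 site.

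Repeat-masked sequence covered most of the window in 16.5% of members and 24.4% of flanks (Fisher's exact test, adjusted p = 3.19e-16). The share was 7.96% in Th17 regions that overlap a Th9 peak (Fisher's exact test against members, adjusted p = 0.00157) and 17.3% in Th9-only regions (Fisher's exact test, adjusted p = 0.503). The mean GC content was 42.1% ± 7.85 (SD over regions) in members and 42.3% ± 7.81 in flanks.

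The members were nearest to 2314 genes, which is 8.84% of the 26180 genes with a curated transcript and, among protein-coding genes, 1779 of 21000 (8.47%). A single member was nearest to 1995 of these genes and more than 1 to the other 319. Genes of 8 lists were counted against this background with no test, since long spaces around a gene raise its chance of a nearest region. Of the 166 genes of the lists, 47 (28.3%) were nearest to a member, with 64 regions, of which 62 were called in library 3 only. Fold enrichments of the 64 regions ran from 4.52 to 14.1 with a median of 6.78, 45 lay between genes and 19 in introns, and 23 (35.9%) held an AP-1 site.

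Of the Th17 programme, 11 of 27 genes (40.7%) were nearest to a member. Among receptors, *Il1r1* had a region in its intron 11227 bp after the start site (fold enrichment 7.34), *Il6st*, which codes for the gp130 chain of the IL-6 receptor, a region 5386 bp upstream (8.47), and *Ccr6*, the chemokine receptor of Th17 cells, a region 9069 bp upstream (6.21). Among transcriptional regulators, *Ahr*, the aryl hydrocarbon receptor, had a region 18327 bp upstream with 2 AP-1 sites shown above (9.60). *Nfkbiz*, which codes for the nuclear protein IκBζ, had regions 156200 bp (10.7) and 67496 bp (10.2) downstream of its start site. *Maf* had 4 regions, the nearest 6146 bp downstream (4.52) and the others 281665 to 569822 bp away, a pair of them in introns of *Wwox*. *Batf* itself had a region 24311 bp downstream (6.21), *Hif1a* one 120745 bp upstream (6.21) and *Bcl3* one 14366 bp upstream (7.17). Among cytokines, *Il21* had a region 22909 bp from its start site (6.78).

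*Il10*, which codes for an anti-inflammatory cytokine, was the only list gene beside *Ctla4* with a region in library 4. That region, in an intron on chromosome 1 (131022653 to 131022866), reached 10.3, and library 3 had regions 25959 bp (6.21) and 23371 bp (5.08) upstream. No member lay within 50 kb of *Il17a*, *Il17f* or *Il23r*. A Th17 region that overlaps a Th9 peak, and so is not a member, did lie within 50 kb of *Il17a*. The same holds for *Il17f*. A Th9-only region lay within 50 kb of *Il23r*. For the same 27 genes, the count was 2 with the 201 Th17 regions that overlap a Th9 peak and 5 with the 1101 Th9-only regions. Those classes were nearest to fewer of all 26180 genes, 186 and 1013 against 2314 for the members. The cause of the differing counts of list genes was not tested.

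Of BATF and its AP-1 and IRF partners, 6 of 20 genes were nearest to a member. *Bach2*, which codes for a bZIP repressor that can occupy AP-1 sites, had 3 regions with fold enrichments of 11.9 in its intron and 9.03 and 7.34 more than 100 kb upstream. *Batf3* had an intronic region (7.68), *Fos* a region 45817 bp downstream (7.34) and *Irf8* one 19867 bp upstream (7.90), each with an AP-1 site. *Batf* and *Maf* are in this list too.

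Chemokine receptors and adhesion molecules had the highest share, 11 of 22 genes. *Cxcr4* had 3 regions, of which one 240220 bp upstream reached a fold enrichment of 14.1. *Ccr9* had a region 1060 bp upstream (8.47), *Itgal*, the α chain of LFA-1, one 8050 bp upstream (9.24), *Ccr2* the AICE region above (7.90) and *Cd44* one 47051 bp upstream (6.78). *Itga4*, *Itgb1* and *S1pr1* had 2 regions each, with fold enrichments from 5.65 to 7.34, and *Itgav*, *Cxcr5* and *Ccr6* 1 each (5.65, 6.78 and 6.21).

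Of the T cell receptor and costimulation list, 10 of 32 genes were nearest to a member. *Icos* had regions 72561 bp (12.4) and 48950 bp (7.90) downstream, both with an AP-1 site, and *Plcg1* an intronic region (10.2). *Ctla4* had 2 regions (9.19 and 6.21) and *Cd247*, the CD3ζ chain, 2 (5.94 and 4.61). The single regions of *Cd28*, *Nfatc1*, *Havcr2*, *Tigit* and *Pdcd1* ranged from 5.47 to 7.34. Of the Th1, Treg and Tfh list, 6 of 20 genes were, with *Ikzf2* at 10.2 and 5.59, *Ifng* at 9.03, *Tcf7* at 7.34, *Cxcr5* at 6.78, *Tbx21* at 6.21 and *Il12rb2* at 5.08. Regions near *Ifng*, *Tcf7* and *Tbx21* held an AP-1 site.

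The remaining lists were closer to the background of 8.84%. Of the Th9, Th2 and STAT5 programme, 4 of 22 genes (18.2%) were nearest to a member, with *Il2ra* at 12.4, *Il4ra* at 10.8 with an AP-1 site, *Bcl2* at 7.34 and *Il1rl1* at 6.21. Of the TGF-β pathway it was *Itgb8* alone of 16 genes (6.21), and of B cell and myeloid markers *Ebf1* (5.03) and *Ms4a1* (6.21) of 16. With the start site limited to 10 kb, 4 Th17 programme genes were left, with library 4 alone 1 gene, and with the regions called in both libraries 0 genes.

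The genes with the most members were *B230303A05Rik* and *Trib2*, with 6 each. The other *Trib2* regions lay 153695 to 354986 bp upstream, with fold enrichments from 5.64 to 13.1, and 4 of the 6 held an AP-1 site. *Elmo1* had 5 regions in its introns, from 5.65 to 13.6, and *Gm17746* and *Macroh2a3* 5 each. *Cited2*, which codes for a protein that binds CBP and p300, had 4 regions 140031 to 174125 bp upstream, one of them called in both libraries (10.7 and 7.57). *4930430F21Rik*, *6430553K19Rik*, *Cfap47* and *Lnpep* had 4 each.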

How the data were processed

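BATF, input and IgG ChIP-seq libraries were numbered 1 and 2 in Th9 cells and 3 and 4 in Th17 cells. Per the submitters' processing notes and the methods, the authors trimmed reads with Trim Galore 0.4.3, mapped the pairs to mm10 (Bowtie2) and called peaks for each library alone with MACS2 2.1.0 at a q threshold of 0.01, keeping duplicates. The deposited lists give fold enrichment as a ratio, −log10 p-value and −log10 q-value, and the summit's offset as another value. The control is known from the list's name only. Nothing was rescaled. The authors' lists hold no read counts.

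Genes came from curated transcripts of RefSeq release 108.20200622 (GRCm38.p6), and a region's gene is that with the nearest start site. Motifs were searched on both strands within 100 bp of the merged region's strongest summit, against windows 2000 bp to either side, with Fisher's exact test and Benjamini-Hochberg adjustment. Tests over regions compare these libraries' regions and not independent cultures. Members and gene lists were chosen with earlier results of these data known. Named were list genes, the 10 highest regions called in both or in 1 library, and the 10 genes with most members. Steps were tested on simulated data. Alternatives were a minimum −log10 q of 5, other lists, distances, windows, flanks, motifs, gene limits and each library left out. Comparisons in windows without an AP-1 site, of words 1 base off AP-1, of AICEs among AP-1 windows and of the base after AP-1 were added after the data were seen. Software was matplotlib 3.10.9, pysam 0.24.0, scipy 1.17.1, pandas 2.3.3 and numpy 2.4.6 under Python 3.11.15. Some genes of the lists are not reported here by name.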

Additional observations from a re-analysis of the deposited data

Results flagged for a closer look

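The AP-1 share of Th17-only regions exceeded that of Th9-only regions by 7.61 percentage points (19.5% against 11.9%, Fisher's exact test over regions, p = 7.55e-09). It stands here because the shares of the cell types differed by this test, in which regions of a library are counted as separate observations. Over the 4 libraries the difference did not pass (exact permutation test, p = 0.667, where the smallest possible is 0.333). Within ranges of −log10 q the difference did not pass adjustment. Without Th9 library 1 it was 0 points, where the Th9 side rests on library 2, with 91 Th9-only regions.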

How the results depend on the processing

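No paired analysis was possible because libraries of the 2 cell types carry different replicate numbers, and a number ties a BATF library only to its own input and IgG. The excess of AP-1 over flanks kept its direction and passed under all 15 alternatives tried, and the deficit of repeats under all 9. The number of Th17-only regions was 1277 with a minimum −log10 q of 5, 146 with as many top peaks per library (135) as the smallest holds, and 32 when called in both libraries, and it ranged from 85 to 2821 with 1 library left out. The AP-1 gap to Th17 regions that overlap a Th9 peak was −6.25 points with regions of both Th17 libraries, and −12.4 to −32.8 points with 1 library left out, not passing without library 3. The AP-1 gap to Th9-only regions was 8.32 points with equal numbers of top peaks, not passing. With 1 library left out it was 0 (without Th9 library 1) to 21.3 points (without Th17 library 3). It was 31.9 points for the 32 Th17-only regions of both Th17 libraries against all 1101 Th9-only regions, which were not limited to both Th9 libraries. The promoter difference to Th17 regions that overlap a Th9 peak passed at 3.85 points (−log10 q of 5) and 2.92 points (combined-control Th9 lists only), did not pass at 0.0360 points (combined-control list alone), 0.493 points (both libraries) and 0.504 points (2500 bp), and was −1.65 (without Th17 library 3) to 2.93 points (without Th17 library 4, passing) with 1 library left out. The promoter difference to Th9-only regions was 1.06 points (−log10 q of 5) and 1.07 points (2500 bp), neither passing. It was 0.582 points for regions of both Th17 libraries against all Th9-only regions, not passing. With 1 library left out it was −0.116 (without Th17 library 3) to 1.40 points, not passing without Th17 library 3 or Th9 library 1. With flanks 5000 bp away, 5 motifs beside AP-1 passed, without STAT, RORE and ISRE, and with 50 bp windows 6, without the same 3 and with the CRE. With a minimum −log10 q of 5 it was 7, without the RORE, and with the combined-control list alone 7, without the ISRE. Th17 programme genes numbered 4 within 10 kb, 0 with regions of both libraries and 1 (without library 3) to 12 with 1 library left out. The cause of these changes was not tested.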

Other observations

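Members were spread over the chromosomes. Autosomes held 0.896 (chromosome 5) to 1.27 (chromosome 1) members per Mb, chromosome X 0.614 (105 members, 6 with an AP-1 site) and chromosome Y 0. The median distance from a member to the nearest other member was 289419 bp.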
